A study of Mus musculus with 36 samples.

Results

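The 42 genes described here drive DNA replication and mitosis or set the entry into the cell cycle. They are a list of known cell cycle genes, chosen with earlier results of these data known. A gene with several probe sets was read from the one that was brightest on average. Of the 42, 41 were named on the array annotation, out of 17097 genes in all. Cyclin B1 (Ccnb1) was not matched to a single-gene probe set. Of the 41, 39 passed the filter on dim genes, which left out genes with a mean under 5.19 log2 and kept 12823. The replication role held 13 tested genes, the mitosis role 22 and the G1 regulators 4. Cdc6, which loads the replicative helicase, and cyclin E2 (Ccne2) were under the filter, with means over all arrays of 5.0 and 3.59 log2. The group means of Cdc6 ran from 4.82 to 5.27 log2, lowest and highest both in the second VDH15 experiment, on palmitate with shCD36 and with PLKO.

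The study profiled mouse RNA of the neural fraction of the stroma of human oral carcinoma xenografts, grown at the orthotopic site in NSG mice, a host without T, B and natural killer cells. The hosts ate control food, food rich in palmitic acid (PA, a saturated fatty acid) or food rich in oleic acid (OA, a monounsaturated one). Tumour cells carried PLKO, a non-targeting short hairpin RNA, or shCD36, a hairpin against CD36, a receptor that takes up fatty acids. The hairpins were in the human tumour cells, so the mouse Cd36 signal does not check the labels. The first VDH15 experiment held PLKO tumours on control, PA and OA diet with 4 arrays each. PLKO and shCD36 tumours on control and PA diet, with 3 arrays per group, made up the SCC25 experiment, and likewise the second one with VDH15. SCC25 is an established oral carcinoma line, and VDH15 is an oral carcinoma line known here by its label alone. That makes 11 groups on 36 arrays. Each group is 1 labelled biological replicate, and its arrays are labelled technical replicates. Errors over arrays therefore cover only the spread among those arrays. A test between groups within an experiment cannot tell a diet from the tumours that received it.

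A dividing cell first licenses its replication origins by loading the MCM helicase (Mcm2 to Mcm7) with the help of Cdc6 and Cdt1, and then copies its DNA with Cdc45, the GINS complex and the sliding clamp Pcna. Ribonucleotide reductase (Rrm1, Rrm2) and thymidylate synthase (Tyms) supply the nucleotides. Many of these genes are switched on by E2F factors late in G1. Mitotic genes, such as the kinase Cdk1 with its cyclins, the Aurora and Polo kinases, the spindle checkpoint and the anaphase activator Cdc20, peak later, in G2 and M, and many carry a cell cycle genes homology region (CHR) and CCAAT boxes in their promoters. Peripheral nerve and stroma are mostly quiescent in the adult, while basal keratinocytes of the oral mucosa divide.

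Promoter sequences are shown first because the replication and mitosis genes are described apart and known motifs differ between them. Windows from 250 bases before to 50 after the start were taken from RefSeq (GRCm38.p6). They were found for 12 of the 14 listed replication genes and 18 of the 23 listed mitosis genes. Both strands were searched for the CHR TTTGAA, for CCAAT, and for E2F sites written as TTTCCCGC, TTTCGCGC or TTTGGCGC. A gene was counted if any of its windows held a match. An E2F site was found in 6 of the 12 replication genes (50%) and 1 of the 18 mitosis genes (5.56%). It was found in 2.12% of all 27025 genes with a window and in 3.67% of the 10269 of these that were tested. The CHR was found in 2 replication genes (16.7%), 13 mitosis genes (72.2%), 20.2% of all genes and 14.6% of those tested. CCAAT stood in 9 replication genes (75.0%), 16 mitosis genes (88.9%), 41.1% of all genes and 42.2% of those tested. None of the 3 G1 regulators with a window held any of them. A match is a stretch of letters and not a shown binding site. The sequences are 120 bases upstream of the gene, read 5′ to 3′ on the gene's strand, with motif letters in capitals (either strand, overlapping matches joined). The 2 replication genes, both helicase subunits, are Mcm5 at chr8:75109348-75109467 on the plus strand and Mcm6 at chr1:128359706-128359825 on the minus strand. The 3 mitosis genes are all on the minus strand, Cdc20 at chr4:118437344-118437463, Cdk1 at chr10:69352913-69353032 and Top2a at chr11:99024200-99024319.
Mcm5: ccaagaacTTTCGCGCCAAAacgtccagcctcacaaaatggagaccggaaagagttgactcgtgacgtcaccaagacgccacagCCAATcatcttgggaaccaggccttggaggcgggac
Mcm6: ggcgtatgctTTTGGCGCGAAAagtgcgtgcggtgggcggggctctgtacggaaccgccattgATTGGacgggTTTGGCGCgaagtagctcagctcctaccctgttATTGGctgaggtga
Cdc20: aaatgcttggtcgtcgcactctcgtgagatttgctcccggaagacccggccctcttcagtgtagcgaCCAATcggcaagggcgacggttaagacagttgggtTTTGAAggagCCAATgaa
Cdk1: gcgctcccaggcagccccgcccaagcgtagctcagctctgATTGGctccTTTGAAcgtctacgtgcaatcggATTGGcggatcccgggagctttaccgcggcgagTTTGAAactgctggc
Top2a: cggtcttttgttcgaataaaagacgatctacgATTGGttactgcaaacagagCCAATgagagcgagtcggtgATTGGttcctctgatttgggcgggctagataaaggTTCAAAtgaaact
The 2 helicase stretches carried E2F letters within the first bases shown, and those of Cdc20, Cdk1 and Top2a carried the CHR (TTTGAA or, on the other strand, TTCAAA). The split was not complete, since the 1 mitosis window with an E2F site was that of Cdk1, outside the stretch shown, and the window of the helicase gene Mcm2 held a CHR and no E2F site.

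Array medians lay between 5.98 and 6.04 log2. Adding the labelled hybridization batch and scan batch to a model with diet and shRNA moved no probe set. The deposited values thus look adjusted for these batches, which the labels do not state. Cell line follows the hybridization batch and was not added apart. Levels are therefore compared only within an experiment. Of the Schwann cell and glia markers, 4 were tested (Sox10, Mbp, Erbb3, Ngfr), with an array median of 6.83 to 7.63 log2, while S100b, Foxd3 and Gfap were under the filter. The 8 basal keratinocyte markers, all tested, had array medians of 10.5 to 11.6 log2. On palmitate in PLKO tumours, 3 arrays stood apart on the first principal component, which held 44.5% of the variance. They were arrays 1 and 2 of the first VDH15 experiment and array 1 of the second, with scores of 53.2, 50.1 and 42.5 against 23.2 or less on every other array. Results that rest on them are given with and without them. The counts without them come without the share of all genes and show only how the calls depend on these arrays.

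The palmitate difference varied between the experiments for genes of both roles, and replication was not tested against mitosis. On each array, the median over a role's genes was taken as the log2 difference from the mean PLKO control array of the same experiment. In the first VDH15 experiment, mitosis genes on palmitate stood at −0.54 ± 0.13 (SD, 4 arrays) and replication genes at −0.18 ± 0.078. In SCC25 the same medians were 0.07 ± 0.09 (SD, 3 arrays) for mitosis and 0.23 ± 0.11 for replication. In the second VDH15 experiment they were 0.01 ± 0.05 and 0.59 ± 0.24. Mitosis genes were thus low in 1 experiment and near their controls in the others, while replication genes were slightly low in 1 and high in the others. The 4 G1 regulators had group medians between −0.05 and 0.16 in every group.

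**Figure D1:**
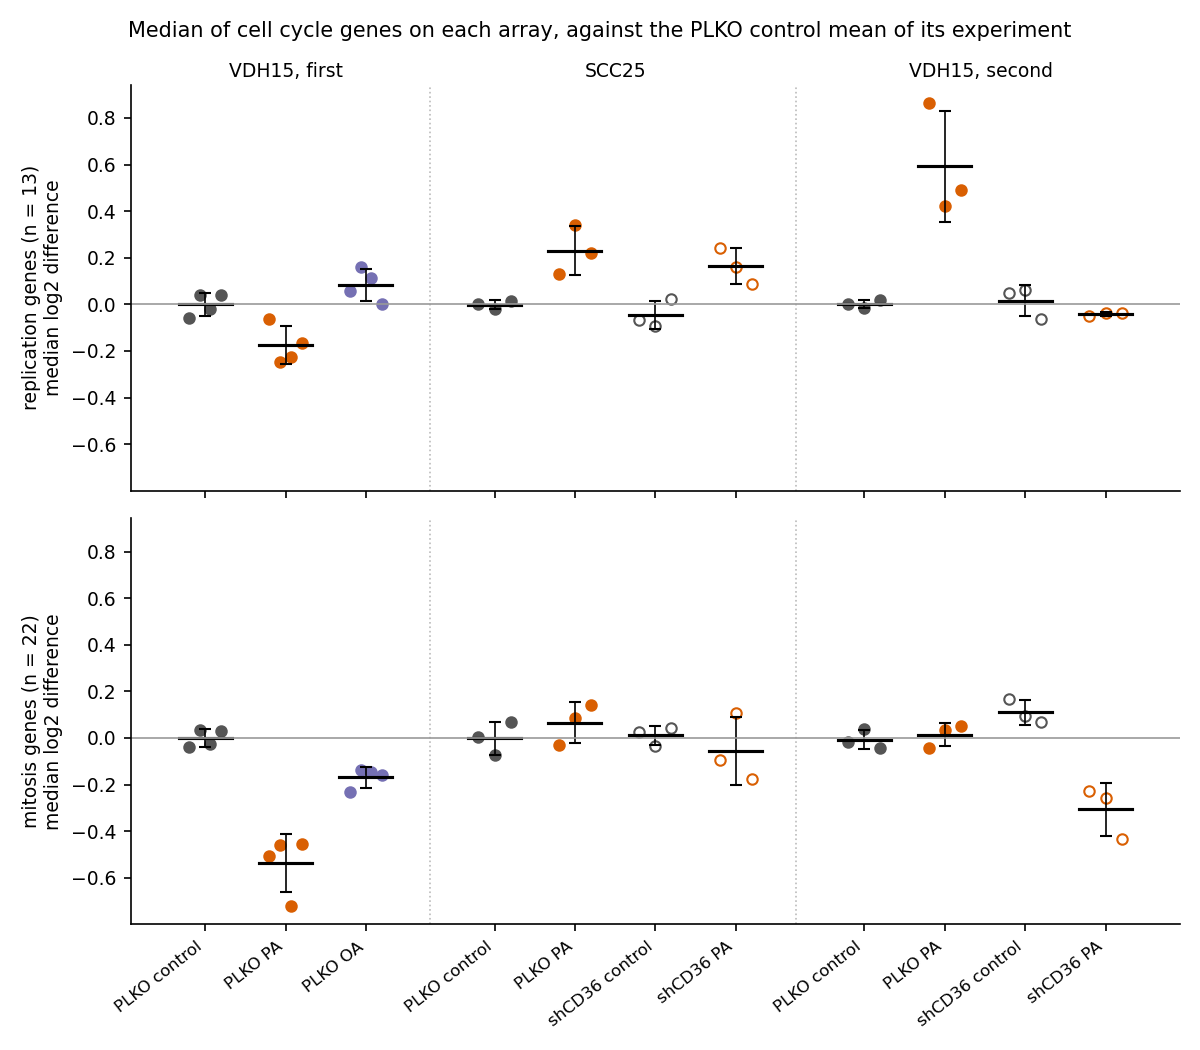
Median log2 difference of the 13 replication genes (top) and 22 mitosis genes (bottom) from the PLKO control mean of the same experiment, 1 point per array over the 11 groups (filled PLKO, open shCD36; grey control, orange PA, purple OA; bars are mean ± SD over arrays). Replication genes on palmitate in PLKO tumours lie at −0.25 to −0.06 in the first VDH15 experiment and at 0.42 to 0.86 in the second, and mitosis genes at −0.72 to −0.46 and −0.04 to 0.05.

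Every tested member of both roles, 13 of 13 replication and 22 of 22 mitosis genes, had its lowest palmitate minus control difference in the first VDH15 experiment, as did 40.0% of all 12823 genes. A difference below 0 in the first VDH15 experiment and above 0 in both others was found in 10 replication genes (76.9%), 11 mitosis genes (50%), 1 G1 regulator and 9.68% of all genes. These counts describe signs and not tests.

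Averaged over the 3 experiments, no member passed. Here limma was fitted to the 11 group averages with experiment as a term, and palmitate minus control in PLKO tumours called 6.92% of all genes and 0 of 39 members at an adjusted p under 0.05. At an unadjusted p under 0.05 there were 2 members, against 26.8% of all genes. Mcm6 had 0.44 ± 0.11 log2 (SE) with an adjusted p of 0.0637, and E2f1, an activator of replication genes, 0.24 ± 0.09 with 0.157. Median differences were 0.20 log2 over replication and −0.16 over mitosis genes. In the same contrast 6 of 8 differentiated keratinocyte markers were lower and 0 higher, with a median of −1.60, and their part was not tested. With the 36 arrays in 1 limma fit and their correlation within groups estimated (duplicateCorrelation), 6 members passed, 2 higher and 4 lower. That fit counts its degrees of freedom over arrays labelled technical replicates. Its share of all genes is not given here, so the 6 are not read as a result about the members.

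Within the first VDH15 experiment, nearly all mitosis genes were lower on palmitate. In the limma fit to the 36 arrays, 48.0% of all genes were called (27.7% lower), and so were 27 members, all lower. Of the mitosis genes 21 of 22 fell, with a median difference of −0.55 log2, and the exception was Foxm1, a transcription factor of G2 genes, at −0.12 ± 0.084 (adjusted p = 0.277). Of the replication genes 5 of 13 fell (Mcm4, Mcm7, Cdt1, Gins1 and Rrm1), with a median of −0.16. Every PA array lay below every control array in 19 mitosis and 6 replication genes, a pattern found in 23.1% of all genes.

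Mki67, the antigen of dividing cells that coats mitotic chromosomes, had levels of 10.33, 10.37, 10.32 and 10.39 log2 on the control arrays and 9.14, 9.11, 9.46 and 9.59 on palmitate. The groups did not overlap, and the arrays with the lowest levels were those that stood apart. The difference was −1.02 ± 0.089 (adjusted p = 1.09e-09), a 2.03-fold fall, and −0.83 without the arrays that stood apart. Top2a, the topoisomerase that untangles chromosomes, had control levels of 8.39, 8.08, 8.30 and 8.48 and palmitate levels of 7.43, 7.43, 7.51 and 7.64. No array of one group reached the other, and Top2a fell by 0.81 ± 0.094 (adjusted p = 9.39e-08). Cdc20, the activator of the anaphase-promoting complex, fell from 9.62, 9.78, 9.74 and 9.70 to 8.87, 8.96, 8.88 and 9.09. Its difference was −0.76 ± 0.083 (adjusted p = 3.47e-08), again without overlap. Aurkb, the kinase of the chromosomal passenger complex, went from 8.71, 8.96, 9.11 and 8.92 to 8.43, 8.33, 8.27 and 8.28, a difference of −0.60 ± 0.072 (adjusted p = 1.64e-07). The largest fall among members, 1.06 ± 0.16, was that of Nusap1, a spindle microtubule protein (adjusted p = 2.9e-06). Tpx2, which activates Aurora A on the spindle, fell by 0.56 ± 0.08 (adjusted p = 1.6e-06).

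Cdk1, the master kinase of mitosis, moved less. Its control levels were 9.75, 9.82, 9.74 and 9.80, and on palmitate they were 9.75, 9.69, 9.24 and 9.52. One palmitate array reached the control range, and the difference was −0.23 ± 0.084 (adjusted p = 0.026). Among replication genes, the helicase subunit Mcm4 had control levels of 8.06, 7.87, 8.06 and 7.95 and palmitate levels of 7.53, 7.44, 7.83 and 7.51. They did not overlap, and Mcm4 fell by 0.41 ± 0.095 (adjusted p = 0.000797). Gins1, a subunit of the GINS helicase cofactor, fell by 0.50 ± 0.11 (adjusted p = 0.000427). Pcna did not pass, with control levels of 10.60, 10.49, 10.41 and 10.55 and palmitate levels of 10.57, 10.53, 10.38 and 10.39, and a difference of −0.044 ± 0.070 (adjusted p = 0.641). Mcm2 (8.78, 8.59, 8.44 and 8.69 against 8.56, 8.34, 8.48 and 8.34) and Mcm6 (7.36, 7.54, 7.13 and 7.33 against 7.53, 7.60, 7.46 and 7.52) overlapped between diets, with differences of −0.19 and 0.18 that did not pass.

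Without the arrays that stood apart, 20 mitosis and 6 replication genes fell, with medians of −0.60 and −0.23. Ccnb2, Mcm7 and the G1 cyclin Ccnd1 no longer passed, while Rrm2 and Tyms did. The arrays of this experiment were scanned in 2 labelled batches with every diet in each. In scan batch 2 alone 14 mitosis genes and 1 replication gene fell, and in scan batch 3 alone 21 and 3, with mitosis medians of −0.53 and −0.62. The shares of all genes in single scan batches are not given here, so these counts show only how the calls depend on the arrays. Basal keratinocyte markers were lower on palmitate as well, 7 of 8 with a median of −0.47 log2. Their array medians relative to control were −0.95 to −0.045 on palmitate and −0.018 to 0.072 on control. Differentiated keratinocyte markers fell in 6 of 8 tested. Endothelial markers rose in 8 of 8 (median 1.35), macrophage markers in 6 of 7, fibroblast markers in 5 of 7 (median 0.90) and red blood cell markers in 3 of 3 (median 0.41). Of the Schwann cell and glia markers tested, Erbb3 was lower (−1.59), and Sox10, Mbp and Ngfr did not pass. Of the neuron markers tested, Tubb3 was lower (−1.51) and Uchl1 higher (0.54), and Prph and Stmn2 did not pass. The part of these cell types in the members' fall was not tested. In bulk RNA, fewer cells of a dividing type and less RNA per cell cannot be told apart.

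Oleate did not move these genes past the threshold. Oleate minus control called 2.46% of all genes and 0 of 39 members, with medians of −0.16 log2 over mitosis and 0.11 over replication genes. At an unadjusted p under 0.05 there were 14 members, against 13.2% of all genes, and without the palmitate arrays that stood apart, which share the estimate of the spread, limma called 5 (Mcm3 and Mcm4 higher, Mki67, Tpx2 and Kif20a lower). Mki67 on oleate had levels of 9.96, 10.10, 9.98 and 10.13, all below the control arrays and above the palmitate arrays. Palmitate minus oleate called 42.4% of all genes (24.0% lower) and 25 members, all lower, which were 15 mitosis, 9 replication and 1 G1 gene. The replication median was larger here, −0.30, and Mcm4 (8.22, 8.39, 8.44 and 8.24 on oleate) fell by 0.75 ± 0.095 (adjusted p = 7.43e-07). Both comparisons with palmitate share the same palmitate arrays. Endothelial markers were higher on oleate too, in 6 of 8, while no basal keratinocyte marker passed.

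In SCC25 stroma 3 replication genes rose on palmitate, while the members together were called about as often as all genes. Palmitate minus control in PLKO tumours called 11.7% of all genes (6.64% higher) and 3 members, all of the replication role. They were Cdt1, Mcm6 and Mcm3, and the medians were 0.22 log2 over replication and 0.06 over mitosis genes. Cdt1, the licensing factor that brings the helicase to origins, had control levels of 8.73, 8.88 and 8.83 and palmitate levels of 9.17, 9.45 and 9.35. Every palmitate array was above every control array, and Cdt1 rose by 0.51 ± 0.12 (adjusted p = 0.00464). Mcm6 had control levels of 7.08, 7.06 and 7.29 and palmitate levels of 7.52, 7.95 and 7.45, a rise of 0.49 ± 0.13 (adjusted p = 0.00749). In 8 of 13 replication genes the palmitate arrays lay wholly above the control arrays, as in 15.4% of all genes. They did so in 5 of 22 mitosis genes, which did not pass the test. Mki67 (9.87, 9.75 and 9.96 on control, 9.78, 9.82 and 9.89 on palmitate) differed by −0.03 ± 0.10 and the ranges overlapped. Pcna (10.36, 10.29 and 10.25 against 10.43, 10.59 and 10.52) did not overlap, but its 0.22 ± 0.081 did not pass (adjusted p = 0.0885). Leaving out PLKO palmitate array 2 left 1 member called. Without the arrays that stood apart, all of them from other experiments, the shared spread was smaller and 7 members passed, 5 replication genes and the mitosis gene Kif20a (0.29, adjusted p = 0.0232) higher and Cdkn1a lower. Endothelial markers (8 of 8 higher, median 2.51) and fibroblast markers (5 of 7 higher, median 1.87) moved with this contrast, and basal keratinocyte markers did not (median 0.032). The red blood cell markers Alas2 (1.97), Hba-a1 (0.26) and Slc4a1 (0.33) were higher too. The part of these cell types in the result was not tested.

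The second VDH15 experiment gave the largest rise of replication genes. Palmitate minus control in PLKO tumours called 18.2% of all genes (8.24% higher). Of the members 11 rose, 10 of 13 replication genes and E2f1, and no mitosis gene passed. The median was 0.60 log2 over replication and 0.019 over mitosis genes. Palmitate arrays lay wholly above control arrays in 11 of 13 replication genes and 3 of 22 mitosis genes, against 14.9% of all genes, and wholly below in 2 mitosis genes, against 17.1%.

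Mcm5, a helicase subunit, had control levels of 9.94, 10.19 and 9.85 and palmitate levels of 10.99, 10.72 and 10.62. The groups were separate, and Mcm5 rose by 0.78 ± 0.099 (adjusted p = 8.76e-06), which is 1.72-fold. Mcm2 rose from 8.16, 8.21 and 8.03 to 9.33, 8.65 and 8.77, by 0.78 ± 0.13 (adjusted p = 0.000166). The array that stood apart was the highest of its group for both. Mcm4 (7.47, 7.40 and 7.53 on control, 8.43, 7.99 and 8.14 on palmitate) rose by 0.72 ± 0.11 (adjusted p = 5.95e-05). It had fallen in the first VDH15 experiment. Cdt1 went from 8.79, 8.80 and 8.86 to 10.05, 9.29 and 9.41, a rise of 0.77 ± 0.12 (adjusted p = 0.000103), and Mcm6 from 7.19, 7.10 and 7.18 to 8.06, 7.48 and 7.85, a rise of 0.64 ± 0.13 (adjusted p = 0.00074). The nucleotide enzyme subunit Rrm2 (8.74, 8.84 and 8.69 against 9.54, 9.34 and 9.30) rose by 0.64 ± 0.10 (adjusted p = 7.71e-05). Pcna changed least among the genes that passed, from 10.37, 10.51 and 10.47 to 10.97, 10.52 and 10.63, by 0.26 ± 0.081 (adjusted p = 0.0244). Cdc45, which activates the helicase, was at −0.048 ± 0.10 and did not pass in any of the 3 experiments. Mki67 (9.69, 10.02 and 9.82 against 9.79, 9.77 and 9.91) differed by −0.018 ± 0.10 and Top2a (7.87, 7.97 and 7.86 against 8.10, 7.87 and 7.91) by 0.062 ± 0.11, with overlap in both. The division marker and the helicase genes therefore did not rise together in this group.

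Without the arrays that stood apart, 8 replication genes rose with a median of 0.45, and Pcna, Mcm7 and E2f1 no longer passed. Mcm5 was then at 0.67, Mcm4 at 0.60, Mcm2 at 0.58 and Cdt1 at 0.53. Fibroblast markers (5 of 7 higher, median 1.34), endothelial markers (7 of 8 higher, median 0.93) and macrophage markers (4 of 7 higher) moved with the contrast. Basal keratinocyte markers were near their controls, with a median of 0.067 and 0 called. Of the neutrophil markers S100a8 was lower (−1.36), and S100a9, Csf3r and Mpo did not pass. The part of these cell types in the rise was not tested.

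**Figure D2:**
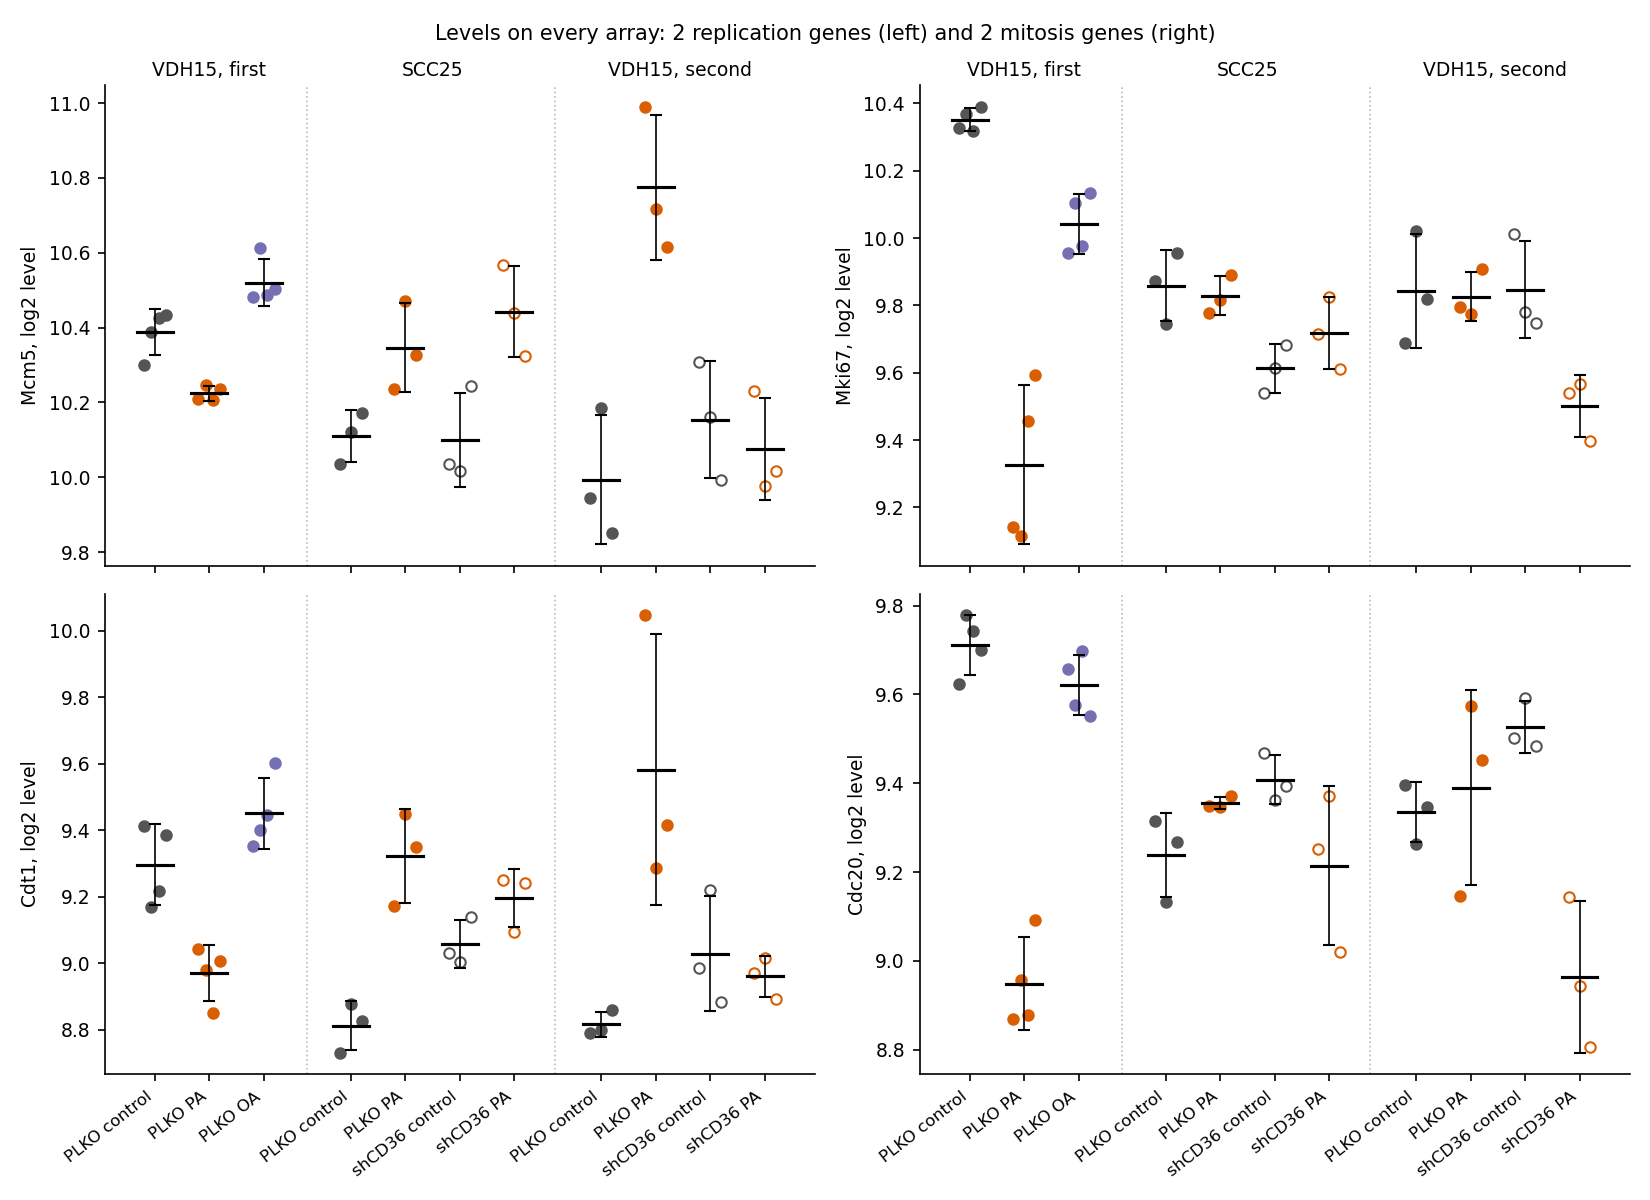
Log2 level on every array of Mcm5 and Cdt1 (left) and Mki67 and Cdc20 (right) over the 11 groups, 1 point per array with mean ± SD bars, filled for PLKO and open for shCD36, grey control, orange PA and purple OA. Within the second VDH15 experiment Mcm5 and Cdt1 are highest on palmitate with PLKO, and within the first Mki67 and Cdc20 are lowest on palmitate, where Mki67 lies between 9.11 and 9.59.

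The palmitate effect differed between experiments by a test of the difference itself. The limma F test of the 3 palmitate effects called 23.8% of all genes and 25 of 39 members, which were 9 replication genes, 15 mitosis genes and Ccnd1. Mki67 had the smallest p (adjusted p = 4.06e-06), then Aurkb (7.45e-06) and Cdc20 (1.02e-05). Mcm4 (adjusted p = 1.41e-05) led the replication genes, followed by Mcm5, Cdt1 and Gins1. Cdk1 (0.0621) and Pcna (0.0576) did not pass. By pairs, the SCC25 effect exceeded the first VDH15 effect in 20 members (5 replication, 15 mitosis), where 17.1% of all genes were called (10.5% higher). The second VDH15 effect exceeded the first in 27 members (11 replication, 15 mitosis, 1 G1), where 22.5% were called (12.3% higher). SCC25 and the second VDH15 experiment differed in 2 members, Mcm4 at −0.71 ± 0.16 (adjusted p = 0.0091) and Mcm5 at −0.54 ± 0.14 (adjusted p = 0.0354), both lower in SCC25, against 1.75% of all genes (0.281% lower). Mcm5 lost that call without the arrays that stood apart (adjusted p = 0.0781). The F test without them called 10 replication and 16 mitosis genes and lost Ccnd1 (adjusted p = 0.163). The pair that differed in most members shared the tumour line and also had the largest share of all genes called. The part of the tumour line was not tested, and an experiment cannot be told apart from its own tumours with 1 biological replicate per group.

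**Figure D3:**
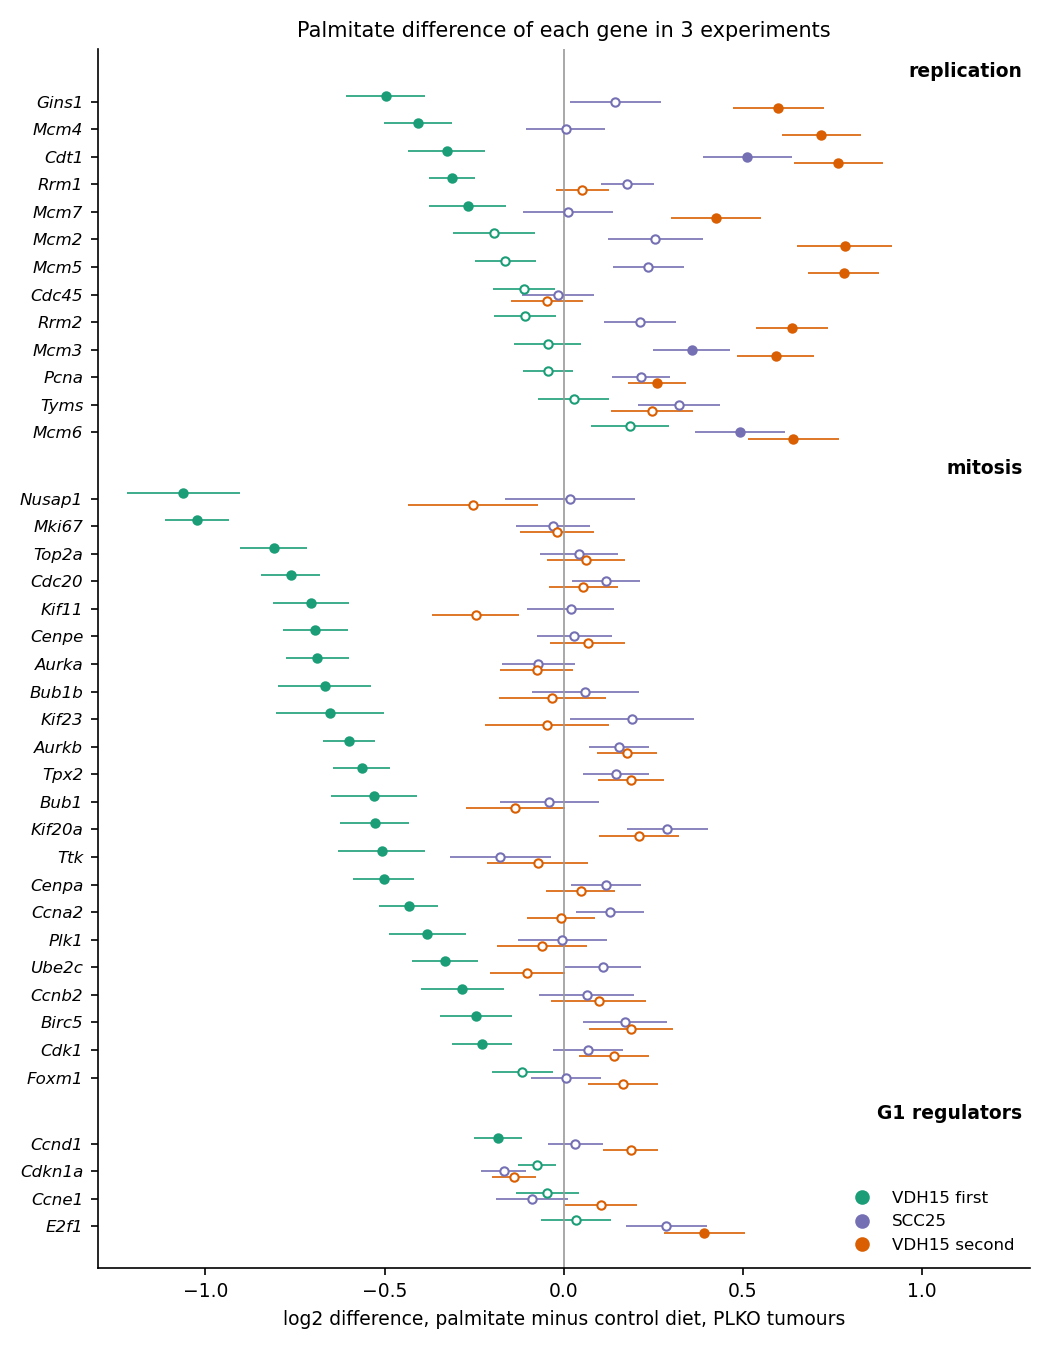
Palmitate minus control difference (log2, bars are SE) of each tested member in PLKO tumours, in the first experiment with VDH15, in SCC25 and in the second with VDH15, ordered by role, 1 colour per experiment, with filled points for an adjusted p under 0.05. Mitosis genes lie below 0 in the first VDH15 experiment (21 of 22 filled) and around 0 in the others, and replication genes rise from a median of −0.16 to 0.22 and 0.60.

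In shCD36 tumours of the second VDH15 experiment, palmitate came with lower mitosis genes and with no rise of replication genes. Palmitate minus control with shCD36 called 2.20% of all genes (1.59% lower) and 9 members, all mitosis genes and all lower, with a mitosis median of −0.36 log2. No replication gene passed, and their median was −0.043. Cdc20 had levels of 9.50, 9.59 and 9.48 on control and 9.14, 8.94 and 8.81 on palmitate. These did not overlap, and Cdc20 fell by 0.56 ± 0.096 (adjusted p = 0.000992). Cenpa, the histone that marks centromeres, fell by 0.58 ± 0.097 (adjusted p = 0.000952), cyclin A2 (Ccna2) by 0.53 ± 0.095 (adjusted p = 0.00168) and the cytokinesis kinesin Kif20a by 0.52 ± 0.11 (adjusted p = 0.00904). Mki67 went from 10.01, 9.78 and 9.75 to 9.54, 9.57 and 9.40 without overlap and did not pass, whereas it did without the arrays that stood apart (adjusted p = 0.0126). Mcm5 (10.31, 10.16 and 9.99 against 10.23, 9.98 and 10.02) overlapped. The count of 9 was 4 without shCD36 control array 1, 5 without shCD36 control array 3, 5 without shCD36 palmitate array 3, and 13 without the arrays that stood apart. Fibroblast, endothelial and basal keratinocyte medians in this contrast were −0.14, −0.43 and −0.048. Of the fibroblast markers only Postn passed, at −1.05. Of the neutrophil markers S100a8 (2.49) and S100a9 (2.43) were higher, and Csf3r and Mpo did not pass. The part of these cell types in the result was not tested.

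The difference between hairpins in the palmitate effect was tested directly. In the second VDH15 experiment this interaction called 13.3% of all genes (7.31% lower) and 15 members, all lower with shCD36, of which 7 were replication and 8 mitosis genes. Mcm5 had −0.86 ± 0.14 (adjusted p = 0.000179), Rrm2 −0.71 ± 0.14 (0.00119), Cdt1 −0.83 ± 0.17 (0.00193) and Aurkb −0.56 ± 0.12 (0.00202). For Mcm5 and Rrm2 the difference came with a rise in PLKO tumours and no called change in shCD36 tumours, and for Cdc20 (−0.62 ± 0.14, adjusted p = 0.00279) with a fall in shCD36 tumours and 0.055 ± 0.096 in PLKO tumours. On palmitate itself, shCD36 minus PLKO called 28.6% of all genes (14.4% lower) and 25 members, all lower, which were 11 replication, 12 mitosis and 2 G1 genes. Their medians were −0.63 and −0.36 for replication and mitosis. Pcna (10.17, 10.17 and 10.13 with shCD36) was lower by 0.55 ± 0.081 (adjusted p = 6.99e-06), with every shCD36 array below every PLKO palmitate array. On control diet the same comparison called 1.53% of all genes and 0 members, with Pcna at −0.30 ± 0.081 just outside the threshold (adjusted p = 0.05002) and 3 members at an unadjusted p under 0.05 (12.6% of all genes). Without the arrays that stood apart Pcna passed there (adjusted p = 0.00246), as did Kif20a. The palmitate comparisons share the PLKO palmitate arrays, of which 1 stood apart. Leaving out the arrays that stood apart, 10 replication and 13 mitosis genes were lower on palmitate and both G1 calls (E2f1 and Ccnd1) were lost, and the interaction held 8 replication and 8 mitosis genes. On palmitate, shCD36 minus PLKO also lowered 7 of 8 endothelial and 3 of 7 fibroblast markers and raised 5 of 8 differentiated keratinocyte markers, and the part of these in the result was not tested.

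In SCC25 few members differed between hairpins. The interaction called 7.87% of all genes and 0 members, shCD36 minus PLKO on control diet 3.74% and 0 members, and palmitate minus control with shCD36 2.67% (2.19% higher) and 1 member. At an unadjusted p under 0.05 these held 4, 3 and 5 members, against 20.2%, 16.2% and 13.0% of all genes. The called member was Gins1, which rose by 0.50 ± 0.13 (adjusted p = 0.0261), and leaving out shCD36 control array 1 or 2 or shCD36 palmitate array 1 or 2 each left 0 members called. On palmitate, shCD36 minus PLKO called 7.05% of all genes (3.13% higher) and 2 members, both G1 regulators and both higher. With the arrays that stood apart left out, 4 members passed there, with Gins1 higher and Kif23 lower besides, and 2 in the interaction, Cdkn1a and Cdt1. The group averages over both shCD36 experiments called 0 members in each of the 4 hairpin contrasts, against 0.374% of all genes for shCD36 minus PLKO on palmitate and 0 genes for the others. At an unadjusted p under 0.05 there were 4 members for shCD36 minus PLKO on palmitate (18.4% of all genes), 1 for the interaction (15.7%) and 0 for shCD36 minus PLKO on control (3.39%) and for palmitate minus control with shCD36 (2.20%). For oleate minus control they called 0 members and 0 genes, and for palmitate minus oleate 0 members and 0.0390% of all genes, with 0 members at an unadjusted p under 0.05 in both (1.75% and 12.4% of all genes).

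**Figure D4:**
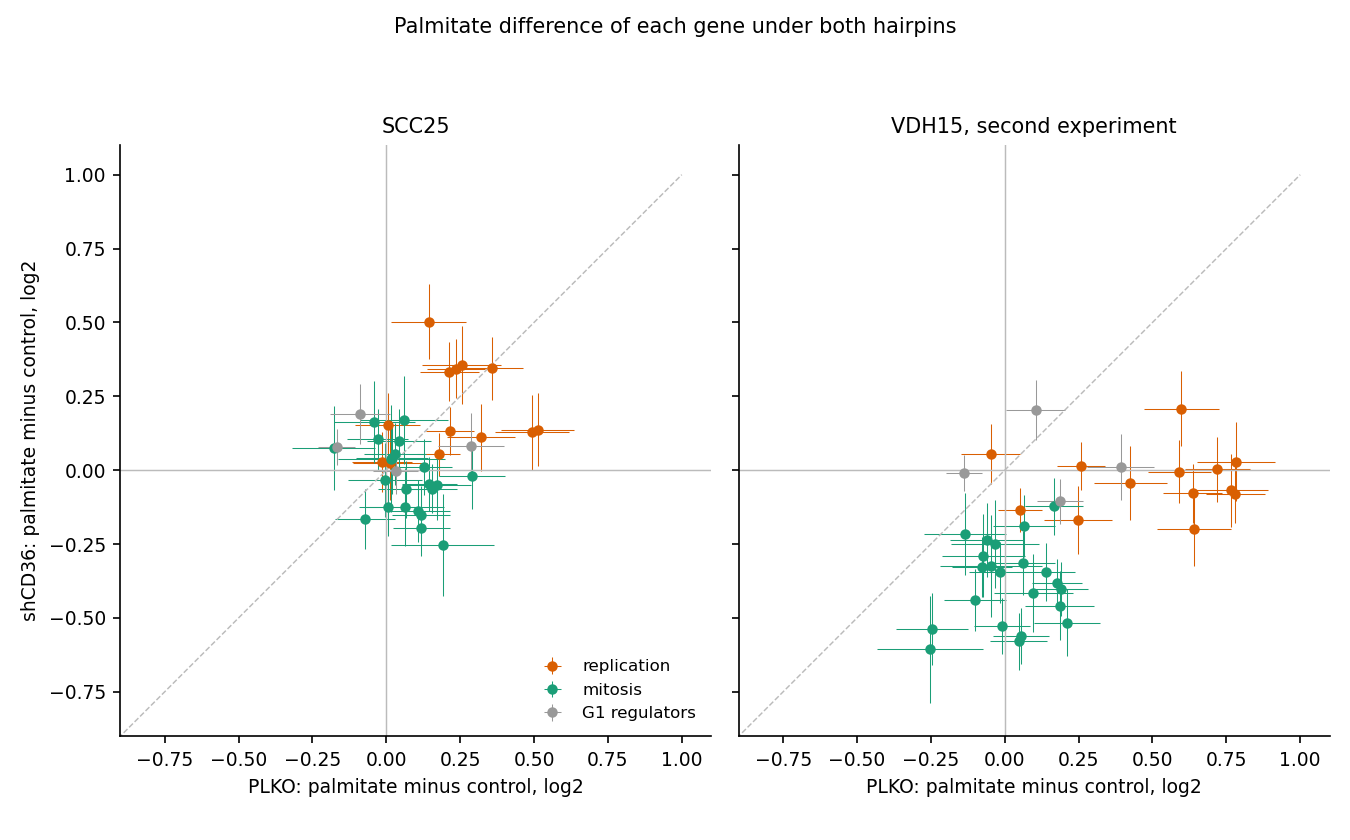
Palmitate minus control difference (log2) in shCD36 tumours against that in PLKO tumours for each tested member, in SCC25 and the second VDH15 experiment, coloured by role, with SE bars and a dashed line of equal difference. In the second VDH15 experiment replication genes lie at a median of 0.60 in PLKO and −0.043 in shCD36 tumours, and mitosis genes at 0.019 and −0.36.

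The G1 regulators had the small group medians given above, but single genes passed in some contrasts. Their list joins cyclins and E2f1 with the inhibitor Cdkn1a, so opposite moves can offset each other in a median. Ccnd1, cyclin D1, which starts G1 progression, had levels of 10.39, 10.49, 10.52 and 10.37 on control and 10.09, 10.23, 10.30 and 10.41 on palmitate in the first VDH15 experiment. The groups overlapped, and Ccnd1 fell by 0.18 ± 0.066 (adjusted p = 0.0229), a call that was lost without the arrays that stood apart (adjusted p = 0.419). In the second VDH15 experiment Ccnd1 (10.30, 10.35 and 10.16 against 10.44, 10.46 and 10.47) differed by 0.19 ± 0.077 and did not pass. E2f1 had levels of 7.72, 7.81, 7.78 and 7.82 on control and 7.95, 7.81, 7.89 and 7.63 on palmitate in the first VDH15 experiment, a difference of 0.034 ± 0.098. In the second, E2f1 went from 7.50, 7.60 and 7.85 to 8.24, 7.90 and 8.00 and rose by 0.39 ± 0.11 (adjusted p = 0.0146). Its SCC25 difference of 0.29 ± 0.11 (7.52, 7.82 and 7.49 against 7.88, 7.81 and 8.01) did not pass. Cdkn1a, which encodes the cyclin kinase inhibitor p21, did not pass for palmitate in PLKO tumours of any experiment with all arrays, and was lower in SCC25 (−0.17, adjusted p = 0.00677) without the arrays that stood apart. Its levels in the first VDH15 experiment were 12.16, 12.15, 12.17 and 12.19 on control and 11.97, 12.02, 12.15 and 12.22 on palmitate, in SCC25 12.16, 12.20 and 12.20 against 12.02, 11.99 and 12.05, and in the second VDH15 experiment 12.20, 12.24 and 12.23 against 11.92, 12.18 and 12.15. The SCC25 and second VDH15 ranges were separate, with palmitate lower (as in 19.7% and 17.1% of all genes), and the first overlapped. With shCD36 on palmitate in SCC25, Cdkn1a stood at 12.33, 12.29 and 12.30 and was higher than with PLKO by 0.29 ± 0.062 (adjusted p = 0.00304). Ccne1, cyclin E1, was higher there by 0.38 ± 0.10 (adjusted p = 0.0191).

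Other genes of the same pathways were taken from lists of known function, also chosen with earlier results of these data known. Of 48 other replication genes tested, palmitate in PLKO tumours raised 1 and lowered 26 in the first VDH15 experiment, raised 3 in SCC25 and raised 14 in the second VDH15 experiment, with medians of −0.25, 0.09 and 0.20 log2. The F test called 29 of them. Of all genes, 27.7% were lower in the first VDH15 experiment, 6.64% higher in SCC25 and 8.24% higher in the second. The SCC25 count was near its share of all genes. The uracil glycosylase Ung changed in all 3 experiments, by −0.47 ± 0.14, 0.63 ± 0.16 and 0.99 ± 0.16. Rfc4, a subunit of the clamp loader, fell by 0.81 ± 0.097 in the first VDH15 experiment and had 0.24 and 0.09 in SCC25 and the second VDH15 experiment, while Rfc2 had −0.52, 0.24 and 0.32. Of 60 other mitotic genes, 50 fell and 1 rose in the first VDH15 experiment, none passed in SCC25, and 5 rose and 1 fell in the second, with medians of −0.56, 0.05 and 0.10. The F test called 42. The 5 that rose in the second VDH15 experiment were near the 8.24% of all genes called higher there. Melk, a kinase of dividing cells, fell by 0.95 ± 0.074 (adjusted p = 2.29e-10) in the first VDH15 experiment, did not pass in SCC25 (0.05 ± 0.085) and rose by 0.36 ± 0.085 (adjusted p = 0.00367) in the second. Cdca8, of the chromosomal passenger complex, had −0.98, 0.09 and 0.18, and Trip13, which resets the spindle checkpoint, −0.66, 0.18 and 0.69. With shCD36 in the second VDH15 experiment, palmitate lowered 18 of 60 other mitotic genes and 1 of 48 other replication genes. Of all genes, 1.59% were lower there, and the replication count was near that share.

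Over all genes and in either direction, palmitate against control in PLKO tumours called 48.0% in the first VDH15 experiment, 11.7% in SCC25 and 18.2% in the second, and the F test called 23.8%. Of 26 other G1 and E2F regulators, 12 fell and 3 rose in the first VDH15 experiment, 1 fell in SCC25, and 5 rose and 2 fell in the second. E2f8, a repressor of E2F targets, had −0.99, 0.21 and 0.33, and Mybl2, an activator of G2 genes, −0.65, 0.10 and 0.64, with 9 of the list called in the F test. Cks1b, which helps degrade the inhibitor p27, had −0.12, 0.21 and 0.52. Of 19 p53 target genes tested, 10 fell and 2 rose in the first VDH15 experiment, 3 fell in SCC25, and 4 rose and 2 fell in the second, and 7 were called in the F test. Fas, a death receptor, had −0.92, 0.27 and 0.47, Pmaip1, a pro-apoptotic factor, −0.89, 0.17 and 0.65, and Mdm2, which degrades p53, −0.53, −0.01 and 0.23. Cdkn1a, itself a known p53 target, has its values above.

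Other probe sets of the same gene did not always move alike. Of the members, 24 had several, and in 3 of these the palmitate difference in PLKO tumours had opposite signs between probe sets in the first VDH15 experiment, in 11 in SCC25 and in 7 in the second. The second probe set of Cdt1 had −0.24, 0.28 and 0.44 and that of Mcm2 −0.22, 0.29 and 0.37 in the 3 experiments, with the signs of the probe sets used here. That of Aurkb had −0.52, 0.01 and 0.33 and that of Tpx2 −0.52, 0.00 and 0.48. The other Ccnd1 probe sets had −0.33 and −0.44 in the first VDH15 experiment, where the one used had −0.18. The second Cdkn1a probe set had −0.20, −0.26 and −0.28 in the 3 experiments, and the one used had −0.08, −0.17 and −0.14. In contrast, for shCD36 minus PLKO on palmitate in the second VDH15 experiment the Mcm7 probe set used here had −0.68 and the other 0.24. Over the mean of all probe sets of each gene, the replication median in the second VDH15 experiment was 0.38 instead of 0.60.

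Outside the lists, the genes whose levels were most like the median of the mitosis members over the 36 arrays, after subtracting each experiment's mean, were Iqgap3, H3c1, Stmn1, Gas2l3 and Gpsm2, with Pearson correlations of 0.842 to 0.857. The arrays share groups and experiments, so the correlations are descriptions.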

How the data were processed

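The deposited values, made by the authors from mouse Affymetrix arrays, are log2 intensities from RMA in affy, per the submitters' processing notes. The annotation named 1 gene for 28898 of 45141 probe sets. Of several, the one brightest on average stood for its gene, and the 25% of genes with the lowest mean were left out. With limma 3.58.1 in R 4.3.3, 1 fit took the 11 group averages (condition and experiment as terms, 4 residual degrees of freedom) and 1 the 36 arrays (group and scan batch, 24 residual degrees of freedom). Benjamini-Hochberg adjustment ran over 12823 genes per contrast, and an adjusted p under 0.05 was called. The genes named were 9 members always described, up to 4 with the smallest p per contrast (per role in the F test) and up to 3 per pathway list. Members and lists were chosen with earlier results of these data known. Both fits were tested on simulated data. Same-numbered arrays did not deviate together (median correlations of 0.028, 0.029 and −0.047), so numbers pair nothing. Alternatives were other probe set rules, filters, normalization, blocks, an intensity trend, single experiments, single scan batches and arrays left out. Each group is 1 labelled biological replicate, which limits what tests over its arrays can show. No raw intensity files were used.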

Additional observations from a re-analysis of the deposited data

Results flagged for a closer look

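In groups of 4 arrays, 3 of 72 sets of levels had 1 array far from the others, where chance gives about 1 in 20. All 3 were in the first VDH15 experiment on oleate, with Mcm5 highest at 10.6127 log2, Rrm2 highest at 9.4115 and Top2a lowest at 8.0862.

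The palmitate effect in PLKO tumours differed between the 3 experiments by the limma F test in 9 replication genes, 15 mitosis genes and 1 G1 regulator. The same test called 23.8% of all genes, and 1 of 4 G1 regulators is near that share. Among mitosis genes the adjusted p was 4.062e-06 for Mki67, 7.45e-06 for Aurkb, 1.022e-05 for Cdc20, 4.55e-05 for Tpx2, 4.631e-05 for Top2a, 0.0002112 for Kif20a, 0.0009974 for Cenpa and 0.003308 for Ccna2. The replication genes had 1.406e-05 for Mcm4, 3.617e-05 for Mcm5, 4.456e-05 for Cdt1, 0.0001016 for Gins1, 0.0006487 for Rrm2, 0.0007127 for Mcm2 and 0.004445 for Mcm3. Ccnd1 had 0.02215, and 0.163 without the arrays that stood apart.

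The palmitate effect differed between shCD36 and PLKO tumours of the second VDH15 experiment in 7 replication and 8 mitosis genes by limma. All were lower with shCD36, and 13.3% of all genes were called (7.31% lower). The adjusted p was 0.0001785 for Mcm5, 0.001194 for Rrm2, 0.001932 for Cdt1, 0.002104 for Mcm6, 0.002664 for Mcm4, 0.007023 for Mcm2 and 0.008315 for Mcm3. It was 0.002021 for Aurkb, 0.002684 for Kif20a, 0.002785 for Cdc20, 0.002819 for Cenpa, 0.002873 for Tpx2, 0.009599 for Ccna2 and 0.01821 for Cdk1.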

How the results depend on the processing

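No count of called members changed its direction, while medians near 0 in SCC25 and the second VDH15 experiment changed sign under single arrays left out, quantile normalization, the mean of all probe sets or no filter. The counts for palmitate over control in PLKO tumours of the first VDH15 (22 to 27) and second VDH15 experiment (8 to 13), and for the F test (23 to 27), stayed within 1.5 times under every array left out. Scan batch 2 alone gave 15 members for palmitate over control, 14 for palmitate over oleate and 17 for the second against the first VDH15 experiment. Over the group averages, no replicate block (no experiment term) gave 2 members for palmitate over control and 2 for shCD36 over PLKO on palmitate. For the same contrasts duplicateCorrelation, fitted to the 36 arrays and not to the averages, gave 6 and 3. Array number as a replicate block changed 1 of 39 results, SCC25 palmitate over control with shCD36, to 2.

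The mean of all probe sets gave 3 members for oleate over control, 3 for SCC25 palmitate over control with shCD36, 1 for second VDH15 shCD36 over PLKO on control and 1 for SCC25 against the second VDH15 experiment. Its medians were −0.42 for mitosis in the first VDH15 experiment on palmitate over control, −0.22 for replication on palmitate over oleate, −0.069 for replication with shCD36 over PLKO on palmitate in SCC25 and 0.38 for replication on palmitate over control in the second VDH15 experiment. Without the arrays that stood apart, the counts were 5 for oleate over control, 7 and 5 for SCC25 palmitate over control with PLKO and shCD36, 4 for SCC25 shCD36 over PLKO on palmitate, 2 for the SCC25 interaction, 2 for second VDH15 shCD36 over PLKO on control and 1 for SCC25 against the second VDH15 experiment. Quantile normalization gave 1 each for oleate over control, the SCC25 interaction and second VDH15 shCD36 over PLKO on control. An intensity trend gave 2 for SCC25 palmitate over control with shCD36 and 1 each for the SCC25 interaction and second VDH15 shCD36 over PLKO on control. Each experiment fitted alone gave 6 and 4 for SCC25 palmitate over control with PLKO and shCD36, 1 for SCC25 shCD36 over PLKO on control, 1 for the SCC25 interaction and 4 for second VDH15 palmitate over control with shCD36; tests between experiments could not be fitted this way. The cause of these changes was not tested, and the shares of all genes under these settings are not given here.

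Leaving out single arrays gave ranges of 0 to 2 for oleate over control (2 without palmitate array 1, 2 or 4), 1 to 4 for SCC25 palmitate over control, 0 to 2 for the same with shCD36, 1 to 3 for SCC25 shCD36 over PLKO on palmitate (1 without PLKO palmitate array 2 or shCD36 palmitate array 3), 4 to 9 for second VDH15 palmitate over control with shCD36, 0 to 1 for second VDH15 shCD36 over PLKO on control (1 without PLKO palmitate array 1 or 2) and 1 to 2 for SCC25 against the second VDH15 experiment. In SCC25 the mitosis median ran from −0.13 to 0.0071 for palmitate over control with shCD36 and from −0.029 to 0.075 for shCD36 over PLKO on control, and the replication median from −0.18 to −0.071 for shCD36 over PLKO on palmitate. The SCC25 replication median ran from −0.080 to 0.015 for shCD36 over PLKO on control. In the second VDH15 experiment the replication median ran from −0.081 to 0.025 for palmitate over control with shCD36 and from −0.027 to 0.044 for shCD36 over PLKO on control.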
